A study of Mus musculus with 8 samples.

Results

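Transcripts of 9 genes that restrain or read out receptor tyrosine kinase signalling were followed in sorted mouse nephron progenitors that differ in their Smo genotype. Smo (Smoothened) is the membrane protein through which cells respond to Hedgehog ligands. The genes were taken by name from the pathway, with earlier results of these data known: the Sprouty genes Spry1, Spry2 and Spry4, the Sprouty-related genes Spred1 and Spred2, the phosphatase gene Dusp6, and the ETS factor genes Etv1, Etv4 and Etv5. All 9 were among the 24539 gene symbols of the table, and all 9 passed the filter on low counts, which left 13459 genes for testing. Kidney cells were sorted at E18.5 as mesenchymal nephron progenitors by the Six2GFPcre transgene, which drives a GFP and Cre fusion protein in cells that express Six2. Every group, the controls included, carried this transgene. The 4 groups had 2 libraries each: Smo c/c (labelled Smo KO, both alleles conditional), Smo c/+ (labelled Smo Het), Smo +/+ (labelled Smo WT), and Rosa26 SmoM2/+ with Smo +/+ (labelled SmoM2 Transgenic), in which a Rosa26 allele makes the active Smo form SmoM2. Groups are called KO, Het-labelled, WT and SmoM2 here. The number of embryos behind a library is not given, so p-values measure the spread between these libraries.

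Fibroblast growth factors and other ligands of receptor tyrosine kinases activate Ras and then the kinases Raf, Mek and Erk. Erk-dependent transcription switches on genes whose products damp the pathway: Sprouty and Spred proteins act on the steps from receptor to Raf, and Dusp6 removes phosphate from Erk in the cytoplasm. Etv1, Etv4 and Etv5 form the PEA3 group of ETS transcription factors, which are commonly used as readouts of FGF signalling. In the developing kidney, FGF signals keep nephron progenitors alive and undifferentiated, Spry1 restrains Gdnf and Ret signalling in the neighbouring ureteric bud, and Etv4 and Etv5 act downstream of Ret in the bud tips.

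Promoter sequences are shown because these genes are grouped as targets of a common pathway that ends in ETS factors. RefSeq promoter windows on GRCm38.p6 (the mm10 coordinates named in the submitters' processing notes) were found for 7 of the 9 genes and gave 9 windows, since Etv1 and Etv5 have a pair of start sites each. A window holds 250 bases before and 50 after a start. The motif AGGAAGT, which contains the GGAA core bound by ETS factors, was searched on both strands. It lay in 3 of the 9 windows and in 9.35% of all 32851 windows of this length. The sites of Spred2, Etv1 and Etv5 follow with 10 bases on each side, read along the gene, with the motif in capitals.
Spred2, chr11:19924399-19924425, plus strand: cttccgccctACTTCCTcctcctgttg
Etv1, chr12:38780068-38780094, plus strand: cgagttaggaAGGAAGTagtttccctc
Etv5 second start, chr16:22438351-22438377, minus strand: gacgacacaaAGGAAGTggtttaaact
In Spred2 the motif is on the opposite strand, so its complement ACTTCCT is printed. The motif began 33 bases before the RefSeq start in Spred2, 4 bases before it in Etv1 and at the second base from it in Etv5. GENCODE gene spans begin further upstream, at chr11:19924375 in Spred2, chr12:38779380 in Etv1 and chr16:22439719 in Etv5. All 3 sites thus lie inside these spans. The motifs CCGGAAG (ETS), TGANTCA (AP-1), TGACGTCA (CRE) and GACCACCCA (Gli) were searched in the same way and lay in 8.86%, 7.81%, 1.79% and 0.253% of all windows. They were not found in the windows of these genes. The upstream window of Spry1, the gene with the largest difference between KO and WT, is printed whole and holds no match to any of the 5 motifs.
Spry1, chr3:37639697-37639946, plus strand: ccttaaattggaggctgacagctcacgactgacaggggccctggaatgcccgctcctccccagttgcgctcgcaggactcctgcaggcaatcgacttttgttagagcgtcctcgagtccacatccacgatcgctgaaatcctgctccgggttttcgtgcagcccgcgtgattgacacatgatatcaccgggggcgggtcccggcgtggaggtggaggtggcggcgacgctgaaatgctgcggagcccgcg
A match describes the letters in the window and is not evidence of binding.

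Listed counts summed to between 4422305 and 10305398 per library, and the KO libraries were the shallowest. Smo, which checks the labels, lay between 11.1 and 13.1 CPM (counts scaled to library size) in KO and between 363 and 375 CPM in WT. SmoM2 libraries had between 605 and 629 CPM. The Het-labelled libraries had only 14.4 and 23.9 CPM, which goes against a label of 1 intact allele, so each result that involves Het-labelled carries this doubt. Xist and Y-linked counts showed a male pattern in both KO and a female pattern in both Het-labelled libraries, and 1 library of each in WT and SmoM2, so sex cannot be told apart from group between KO and Het-labelled. Six2 was at 1475 to 2105 CPM in KO and Het-labelled and at 1132 to 1333 CPM in WT and SmoM2. Of 12 nephron progenitor markers, 10 were called higher and 0 lower in KO and Het-labelled against WT and SmoM2, where 22.0% of all tested genes were called higher. The part of this in the differences of the 9 genes was not tested. Of the 12 ureteric bud and collecting duct markers, between 2 and 5 were at 0 in each library. Ret was at most 1.96 CPM and Gata3 at most 0.443 CPM. Summed levels of 12 early nephron genes were 962 to 1242 CPM in KO and 405 to 681 CPM in the other groups. The stroma marker Foxd1 was at 171 to 385 CPM in WT and SmoM2 and at most 22.5 CPM in KO and Het-labelled, while Meis1, also on the stroma list, was at 86.4 to 114 CPM in KO and Het-labelled and at 10.4 to 17.0 CPM in WT and SmoM2. Of the 9 stroma markers tested, 1 was called higher and 2 lower in KO and Het-labelled, and the sum over 10 stroma markers overlapped between these groups (177 to 694 CPM in KO and 333 to 688 CPM in WT and SmoM2). Fewer cells of a type and less RNA per cell cannot be told apart in these bulk libraries.

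The 9 genes differed widely in abundance. Per length, in the authors' RPKM (reads scaled to transcript length and library size), Etv4 was the most abundant in WT at 112 ± 8.80 RPKM (SD, n = 2), above 97.0% of tested genes. Spry1 followed at 65.3 ± 1.09 RPKM. Etv5, Spred2, Spry2 and Dusp6 lay close together, with means between 26.5 and 33.8 RPKM. Spred1 had 13.5 ± 0.0898 and Spry4 8.85 ± 1.10 RPKM. Etv1 was the least abundant at 2.34 ± 0.317 RPKM, above 24.3% of tested genes, and rested on 58 to 143 counts per library. Among the ETS factors of the PEA3 group, Etv4 was thus the main transcript by length in these cells, followed by Etv5.

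**Figure D1:**
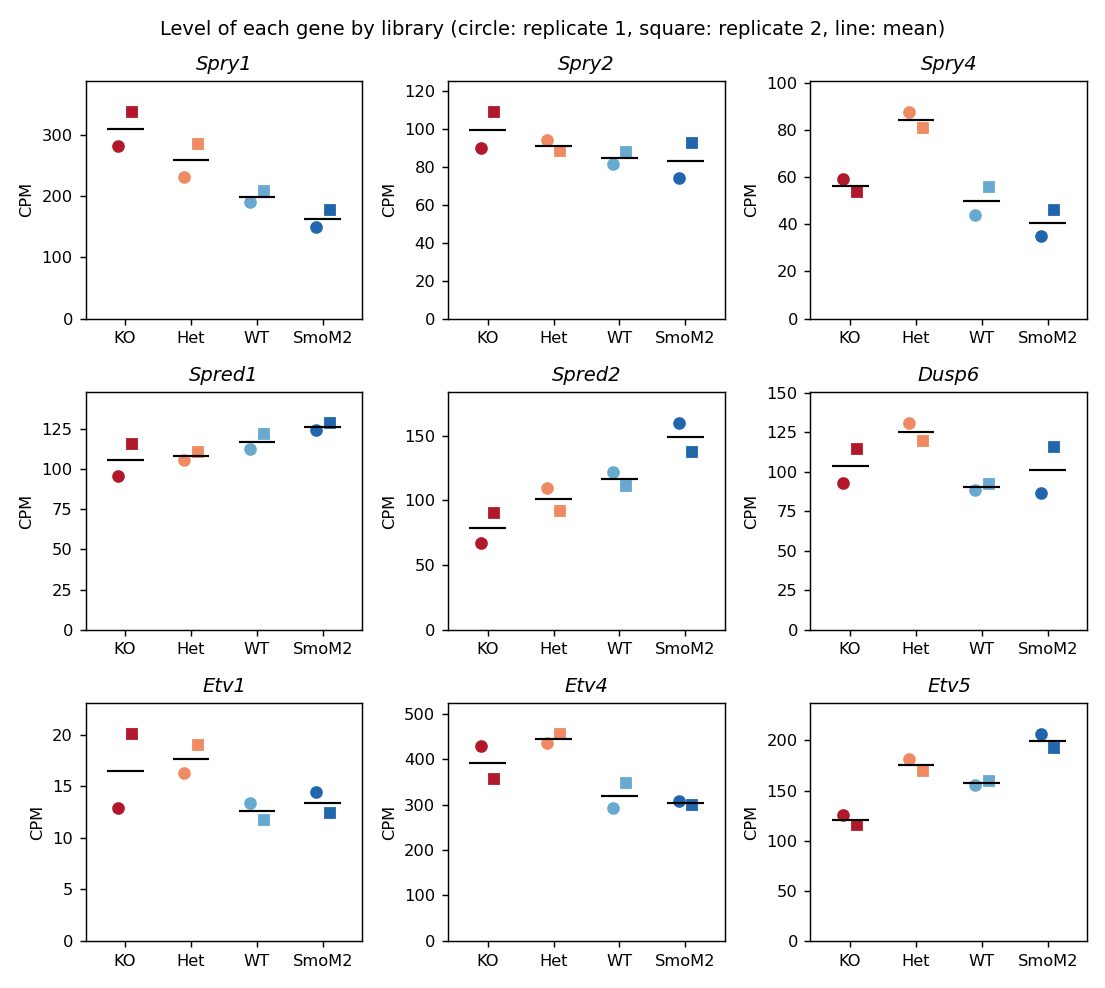
Level of each gene in CPM (linear axis from 0) in the 8 libraries by group, with circles for replicate 1, squares for replicate 2 and a line at the mean. Spry1 steps down from KO to SmoM2 while Spred2 steps up, Spry4 and Dusp6 are highest in Het-labelled, and Etv5 is lowest in KO and highest in SmoM2.

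The genes did not move as a block. Over the 4 groups together, 5 of the 9 differed (edgeR adjusted p under the threshold of 0.05), namely Spry1, Spry4, Spred2, Etv4 and Etv5, against 41.0% of all tested genes. When KO and Het-labelled together were compared with WT and SmoM2, the same 5 were called. In this pooled contrast Spry1, Spry4 and Etv4 were higher (22.0% of all genes were) and Spred2 and Etv5 lower (21.5% of all genes were). Of all tested genes 43.5% were called there. Libraries did not overlap for 3 of the 9 (Spry1, Spred2 and Etv4) and for 33.1% of all genes. The median log2 change of the 9 was 0.25, beside 0.01 over all tested genes. The pooled direction of Etv5 was not shared by both groups. Its Het-labelled libraries lay above those of WT (log2 0.16, edgeR adjusted p 0.335), and its KO libraries lay below them. Spry4 overlapped between KO and WT. Without the Het-labelled libraries 3 of the 5 were called, Spry1, Spred2 and Etv5, while Spry4 gave 0.29 (edgeR adjusted p 0.182) and Etv4 0.30 (edgeR adjusted p 0.0964). The share over all genes in that fit is not reported here. With a score of dissociation stress genes as a covariate none of the 9 was called, where 1268 of the 13459 tested genes were. The score was -0.10 and 0.06 in KO, 0.86 and 0.97 in Het-labelled, -0.91 and -0.65 in WT, and -0.53 and 0.29 in SmoM2. It thus set Het-labelled and WT apart from the other groups, while KO lay within the range of SmoM2. It also includes the Erk-responsive genes Fos, Egr1, Junb and Ier2. A call lost or reversed with this covariate, here or below, therefore cannot tell stress from group or from Erk output.

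By single comparison, 3 of 9 genes were called between KO and WT (1 higher, 2 lower), against 23.0% of all tested genes (11.6% higher, 11.4% lower). Libraries did not overlap for 6 of the 9 and for 62.0% of all genes, and the median log2 change was 0.20. Between Het-labelled and WT 3 were called, all higher, against 25.3% of all genes (13.1% higher, 12.2% lower), with a median of 0.38 and -0.02 over all genes. Libraries of Het-labelled and WT did not overlap in any of the 9 genes, 7 being higher and 2 lower in Het-labelled, where 66.9% of all tested genes did not overlap. SmoM2 and WT gave no call by edgeR or DESeq2, and 0.223% of all genes were called by edgeR. At an unadjusted p under 0.05 there were 2 of the 9, Spred2 and Etv5, and 7.70% of all genes, and 4 of the 9 did not overlap, against 35.8%. KO and Het-labelled gave 1 call, lower in KO, against 9.43% (4.33% higher, 5.10% lower), and 5 did not overlap, against 56.9%. KO and SmoM2 gave 3 calls (1 higher, 2 lower), against 32.5% (16.5% higher, 16.0% lower), and 6 did not overlap, against 67.1%. Het-labelled and SmoM2 gave 4 (3 higher, 1 lower), against 33.7% (16.9% higher, 16.7% lower), and 8 did not overlap, against 70.9%. The number of calls is thus near these shares in each comparison, and the results lie in which genes moved and how. The comparisons share libraries and are therefore not independent.

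**Figure D2:**
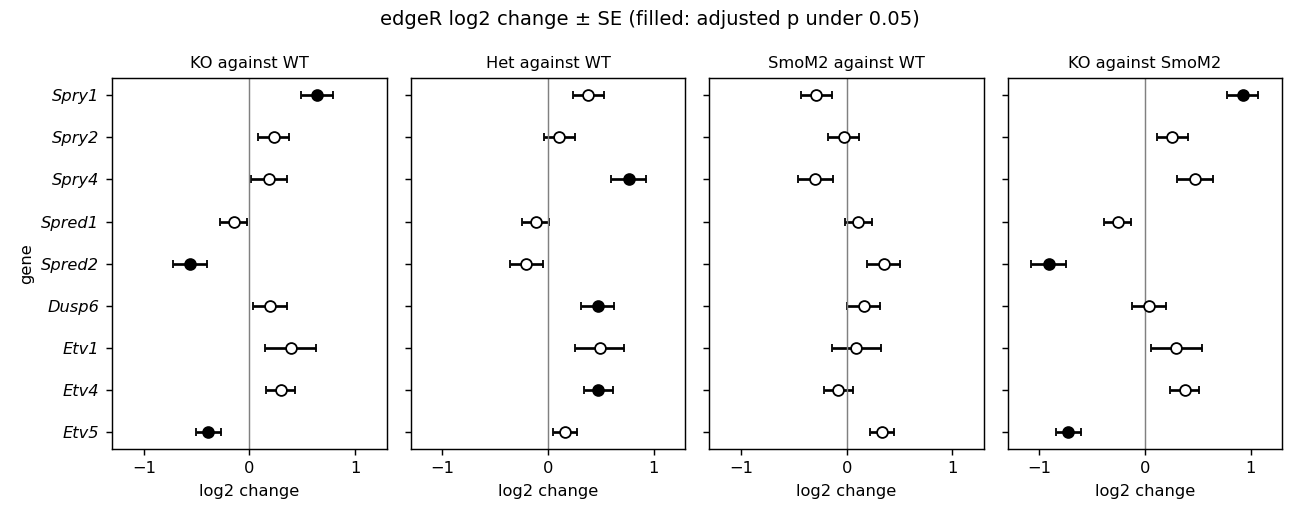
Log2 change of each gene with its standard error from edgeR in 4 comparisons, with filled points for an adjusted p under 0.05. Spry1 lies right of 0 and Spred2 and Etv5 left of 0 when KO is compared with WT and with SmoM2, and no point is filled when SmoM2 is compared with WT.

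Spry1 encodes an inhibitor of receptor tyrosine kinase signalling. Its gene spans chr3:37639947-37644598 on the plus strand. Replicates 1 and 2 had 281 and 337 CPM in KO, 231 and 286 CPM in Het-labelled, 190 and 208 CPM in WT, and 149 and 177 CPM in SmoM2. The group means fell in this order, and no pair of neighbouring groups passed the threshold. KO and Het-labelled libraries overlapped, while each library of KO and Het-labelled lay above all libraries of WT and SmoM2. Spry1 was 1.56-fold higher in KO than in WT (log2 0.64, SE 0.15, edgeR adjusted p 0.0113). It was 1.90-fold higher in KO than in SmoM2 (log2 0.92, SE 0.15, edgeR adjusted p 0.00110), a call that held in all 19 alternatives tried. Het-labelled was 0.38 above WT on the log2 scale (SE 0.15, edgeR adjusted p 0.0794), and with the replicate number as a block the adjusted p was 0.0341. The KO and WT call was lost without KO replicate 2 (log2 0.50, edgeR adjusted p 0.0682), without WT replicate 1 (0.57, 0.0582) and with length and GC trends removed (0.48, 0.0569). Het-labelled exceeded SmoM2 by 0.66 (SE 0.15, edgeR adjusted p 0.00577), which was lost without Het-labelled replicate 2 (0.48, 0.0866), without SmoM2 replicate 1 (0.51, 0.0713) and with length and GC trends removed (0.40, 0.0734). With the stress score as a covariate these calls were lost as well, at 0.33 for KO against WT (edgeR adjusted p 0.383) and 0.25 for Het-labelled against SmoM2 (edgeR adjusted p 0.575). GENCODE places the noncoding gene Gm42922 on the opposite strand over 710 of the 2906 exonic bases of Spry1. The strand setting of the counting is not given in the sources used here, so reads of the pair cannot be told apart.

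Spry4, a further Sprouty inhibitor, had another order. It was at 87.6 and 80.8 CPM in the Het-labelled libraries and at 59.1 and 53.6 CPM in KO. WT libraries had 43.7 and 55.8 CPM, and SmoM2 libraries had 34.9 and 46.2 CPM. Both Het-labelled libraries thus stood above the other 6, and KO and WT overlapped. Het-labelled was 1.70-fold above WT (log2 0.76, SE 0.16, edgeR adjusted p 0.00737) and 2.08-fold above SmoM2 (log2 1.06, SE 0.17, edgeR adjusted p 0.000872). KO was below Het-labelled by a value just outside the threshold (log2 -0.58, SE 0.17, edgeR adjusted p 0.0523). DESeq2 called this difference (adjusted p 0.0261). With sex as a term it was -0.20 (edgeR adjusted p 0.499). That term rests on WT and SmoM2 alone, because KO and Het-labelled each held libraries of a single sex. There it coincides with the replicate number, so no value with sex as a term separates sex from group. KO against SmoM2 was also just outside the threshold (log2 0.48, edgeR adjusted p 0.0518). It was called with sex as a term (log2 0.68, edgeR adjusted p 0.00569), under the same limit. Without SmoM2 replicate 1 it was 0.24. Without Het-labelled replicate 1, the Het-labelled and WT difference was 0.67 (edgeR adjusted p 0.0656). With the stress score as a covariate, Spry4 in Het-labelled against WT turned to -0.083, and the Het-labelled and SmoM2 call was lost (edgeR adjusted p 0.222). Spry2, which was between 73.9 and 109 CPM in all libraries, passed no test, with edgeR adjusted p between 0.179 and 0.989 over the 7 comparisons.

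Spred2 encodes a membrane-associated protein that blocks Ras-dependent activation of Raf. Its gene spans chr11:19924375-20024026 on the plus strand. KO libraries had 67.3 and 90.6 CPM, Het-labelled 110 and 91.9 CPM, WT 122 and 111 CPM, and SmoM2 160 and 138 CPM. No group overlapped with another, and the order was the mirror image of that of Spry1. Spred2 was lower in KO than in WT (log2 -0.56, SE 0.16, edgeR adjusted p 0.0290) and lower in KO than in SmoM2 (log2 -0.91, SE 0.16, edgeR adjusted p 0.00193), the latter in all 19 alternatives. Het-labelled was lower than SmoM2 (log2 -0.56, SE 0.16, edgeR adjusted p 0.0188). Neighbours in the order were not called: KO against Het-labelled gave -0.36 (edgeR adjusted p 0.184) and SmoM2 against WT gave 0.35 (edgeR adjusted p 0.638). With the stress score as a covariate, KO against WT (edgeR adjusted p 0.388) and Het-labelled against SmoM2 (edgeR adjusted p 0.518) were not called. KO replicate 1 was the lowest library, and without it the KO and WT difference was -0.37 (edgeR adjusted p 0.190). Without WT replicate 1 it was -0.50 (edgeR adjusted p 0.107), and with the library totals that the RPKM values imply it was -0.50 (edgeR adjusted p 0.0505). The Het-labelled and SmoM2 call was lost without Het-labelled replicate 2 (-0.46, edgeR adjusted p 0.138) and without SmoM2 replicate 1 (-0.48, 0.0954).

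Spred1, its close relative, was nearly level, at 95.7 to 115 CPM in KO, 105 to 110 CPM in Het-labelled, 113 to 121 CPM in WT and 124 to 128 CPM in SmoM2. It passed no test. Its log2 change in KO and Het-labelled against WT and SmoM2 was -0.19 (edgeR adjusted p 0.114) and turned to 0.21 (edgeR adjusted p 0.0482) once trends over gene length and GC content were removed. No direction is therefore given for Spred1.

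Dusp6 encodes the phosphatase that acts on Erk and lies at chr10:99263231-99267489 on the plus strand. It had 92.8 and 115 CPM in KO, 131 and 120 CPM in Het-labelled, 88.8 and 92.0 CPM in WT, and 86.6 and 116 CPM in SmoM2. The Het-labelled libraries were highest, and the 2 libraries of SmoM2 spanned the whole range of KO and WT. Het-labelled was 1.39-fold above WT (log2 0.47, SE 0.16, edgeR adjusted p 0.0480). This call was lost when any library of Het-labelled or WT was left out, at log2 values of 0.37 to 0.52 (edgeR adjusted p between 0.126 and 0.260), and with sex as a term (log2 0.35, edgeR adjusted p 0.127). It was also lost with RPKM totals (0.45, edgeR adjusted p 0.0559) and with the length trend removed (0.44, 0.0613). It turned to -0.38 (edgeR adjusted p 0.663) with the stress score as a covariate. The summed level of the 12 dissociation stress genes, which include the Erk-responsive Fos and Egr1, was likewise highest in Het-labelled. It was 8121 to 8688 CPM there, 4710 to 6473 CPM in KO, 3503 to 3721 CPM in WT and 3979 to 5432 CPM in SmoM2. KO and WT did not differ past the threshold (log2 0.20, SE 0.16, edgeR adjusted p 0.399).

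Etv4 and Etv5, closely related ETS factors, parted ways. Etv4 lies at chr11:101769742-101785371 on the minus strand and had 428 and 357 CPM in KO, 435 and 455 CPM in Het-labelled, 291 and 348 CPM in WT, and 307 and 299 CPM in SmoM2. All 4 libraries of KO and Het-labelled were above all 4 of WT and SmoM2. Etv4 was called in Het-labelled against WT (log2 0.48, SE 0.13, edgeR adjusted p 0.0242) and in Het-labelled against SmoM2 (log2 0.55, SE 0.13, edgeR adjusted p 0.00913). KO was not called against WT (log2 0.30, SE 0.14, edgeR adjusted p 0.135) or SmoM2 (log2 0.37, SE 0.14, edgeR adjusted p 0.0536). With length and GC trends removed the Etv4 difference was 0.02 in Het-labelled against WT (edgeR adjusted p 0.905) and 0.04 in KO and Het-labelled against WT and SmoM2 (edgeR adjusted p 0.690). Het-labelled against SmoM2 was not called at that setting either, and neither Het-labelled call held with the stress score as a covariate. The Het-labelled and WT call was also lost without Het-labelled replicate 1 (0.47, edgeR adjusted p 0.112), without Het-labelled replicate 2 (0.43, 0.153) and without WT replicate 1 (0.35, 0.137). Het-labelled against SmoM2 was lost without any library of Het-labelled or SmoM2, with values from 0.50 to 0.54 and edgeR adjusted p between 0.0512 and 0.0807.

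Etv5 lies at chr16:22381309-22439719 on the minus strand. Its KO libraries had 125 and 115 CPM, below all other libraries. WT had 155 and 160 CPM, Het-labelled 182 and 169 CPM, and SmoM2 206 and 192 CPM, with no overlap between any of the groups. Replicates of Etv5 differed by at most 1.09-fold, the tightest agreement of the 9 genes. KO was lower than WT (log2 -0.39, SE 0.12, edgeR adjusted p 0.0338), lower than Het-labelled (log2 -0.55, SE 0.12, edgeR adjusted p 0.0189) and lower than SmoM2 (log2 -0.73, SE 0.12, edgeR adjusted p 0.00111). The KO and SmoM2 call held in all 19 alternatives. SmoM2 exceeded WT by 0.34 (SE 0.11, edgeR adjusted p 0.414) and Het-labelled exceeded WT by 0.16 (SE 0.11, edgeR adjusted p 0.335), and neither passed. The KO and WT call was lost without any library of KO or WT, at values between -0.45 and -0.34 and edgeR adjusted p between 0.0697 and 0.117. It was also lost with RPKM totals, in a fit of KO and WT alone and with length or length and GC trends removed, at edgeR adjusted p between 0.0537 and 0.0630. With the stress score as a covariate it was lost too (edgeR adjusted p 0.378), as was the KO and Het-labelled call. The KO and Het-labelled call was lost without any library of these groups, at -0.62 to -0.49 and edgeR adjusted p between 0.0506 and 0.155. The summed level of the 12 ureteric bud and collecting duct markers was also lowest in KO (47.2 to 54.7 CPM) and highest in SmoM2 (104 to 131 CPM), with at most 63.9 CPM in Het-labelled and WT, and its part in the Etv5 difference was not tested. In that list Wnt11 was at 1.09 to 3.10 CPM in KO and 24.1 to 34.2 CPM in SmoM2. Sox9 was at 13.3 to 19.5 and 42.5 to 57.7 CPM, and Ret at 0 to 0.435 and 1.27 to 1.53 CPM. Krt8 was at 1.31 to 1.77 and 2.04 to 3.58 CPM, and Krt18 at 4.35 to 4.43 and 5.52 to 7.05 CPM. Hoxb7 was nearly level, at 25.2 to 26.1 and 27.4 to 27.7 CPM. Gata3, Calb1, Wnt9b, Wnt7b, Aqp2 and Tfap2b were at most 0.653 CPM in KO and SmoM2. Of the 6 markers tested, 2 were called lower in KO than in SmoM2 and 0 higher, against 16.0% and 16.5% of all genes. Etv1, the remaining PEA3 factor, was between 11.8 and 20.0 CPM in all libraries and was not called in any comparison, with edgeR adjusted p of at least 0.0819.

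Ratios within a library do not depend on how libraries are scaled. The pairs were chosen after their values were seen, so they are described and not tested. The ratio of Etv4 to Etv5 in RPKM was 5.60 and 5.06 in KO, 3.92 and 4.40 in Het-labelled, 3.08 and 3.57 in WT, and 2.44 and 2.55 in SmoM2. No group overlapped with the next. Spry1 to Spred2 gave 4.82 and 4.29 in KO, 2.42 and 3.58 in Het-labelled, 1.80 and 2.15 in WT, and 1.07 and 1.48 in SmoM2, again without overlap. The proportion of these 2 inhibitors thus went from 4.55 ± 0.371 to 1.28 ± 0.287 (SD, n = 2) between KO and SmoM2, and that of the 2 main PEA3 factors from 5.33 ± 0.378 to 2.49 ± 0.0751. A further ratio that was computed, Spry1 to Spry4, did not step down in this order. Its means were 10.2 in KO, 5.68 in Het-labelled, 7.42 in WT and 7.46 in SmoM2. The ratios are not free of trends over gene length and GC content: with these removed, Etv4 in KO against SmoM2 went from 0.37 to 0.06 on the log2 scale, and Etv5 from -0.73 to -0.68.

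**Figure D3:**
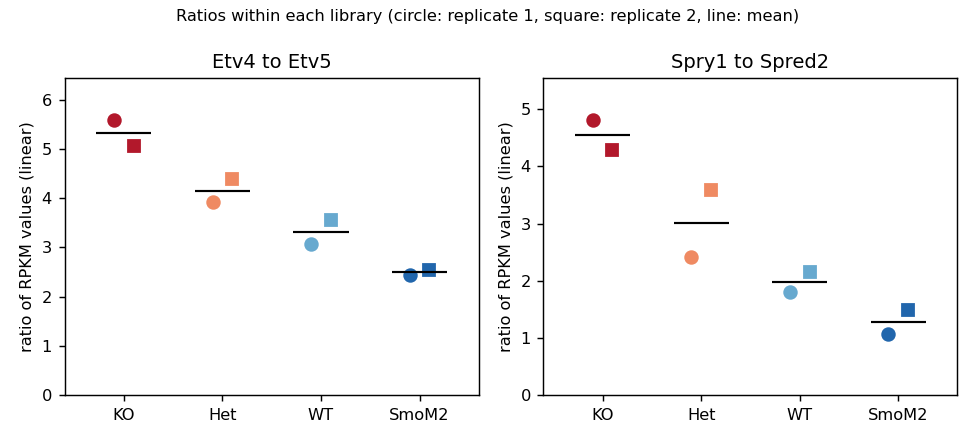
Ratio of RPKM values within each library (linear axis from 0) for Etv4 to Etv5 and for Spry1 to Spred2, by group, with circles for replicate 1, squares for replicate 2 and a line at the mean. Both ratios step down from KO to Het-labelled, WT and SmoM2 with no overlap between groups.

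The genes most alike in pattern were sought for each of the 9 among 4305 tested genes by Pearson's r of log2 CPM over the 8 libraries. These libraries share group, depth and scaling, so r is a description. Spry1 was most like Tgfa (r 0.991), a ligand of the EGF receptor that itself had 62.8 CPM in KO, 48.1 in Het-labelled, 36.0 in WT and 26.8 CPM in SmoM2. Etv5 was most like Spred3 (r 0.975), the remaining member of the Spred family, at 27.6, 48.4, 47.3 and 71.8 CPM in the same order. Spred3 was lower in KO than in WT (log2 -0.78, SE 0.14, edgeR adjusted p 0.00323), as Spred2 was. Dusp6 was most like Dhrsx (r 0.960), Hyou1 (0.942) and the immediate early gene Fos (0.936), which had 610 CPM in KO, 1021 in Het-labelled, 357 in WT and 587 CPM in SmoM2. Spred2 was most like Clcn3 (0.989), Spry4 like Nfkbiz (0.967), Etv4 like Ctdnep1 (0.992), Etv1 like Fam83d (0.958) and Spred1 like Arhgap32 (0.991). Among the 9 themselves, r was 0.889 between Spry4 and Etv4, 0.819 between Spred1 and Spred2, and -0.878 between Spry1 and Spred2.

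Other genes of the pathway were described from lists, in KO and Het-labelled against WT and SmoM2, where 22.0% of all tested genes were called higher and 21.5% lower. Of 10 FGF ligands and receptors tested, 6 were called higher and 1 lower, with a median log2 change of 0.43. Fgf8, a ligand made as nephrons begin to form, had 103 ± 18.6 CPM in KO, 66.6 ± 3.30 in Het-labelled, 6.14 ± 3.02 in WT and 5.11 ± 1.44 CPM in SmoM2 (SD, n = 2), a log2 change of 3.90 (SE 0.20, edgeR adjusted p 4.96e-07). The receptor gene Fgfr1, by far the more abundant, rose by 0.38 (SE 0.09, edgeR adjusted p 0.00649), with 2080 ± 99.6 CPM in Het-labelled and 1303 to 1386 CPM as the means of the other groups. Fgfr4 and the decoy-like receptor gene Fgfrl1 were higher by 0.79 and 0.47, and Fgf10 changed by -0.42. Without the Het-labelled libraries 3 were called higher and 1 lower, with no share over all genes given for that fit. Of 15 other receptor tyrosine kinases 2 were called higher and 7 lower (median -0.60). Erbb2 (0.88) and Ddr1 (0.57) were higher, and Igf1r (-0.85), Insr (-0.60) and Met (-0.89) were lower. Libraries of Fgfr1, Fgfr4 and Met overlapped between the pooled groups, and those of the other genes named here did not, where 33.1% of all genes did not. Met in Het-labelled against WT was -0.09 (edgeR adjusted p 0.865).

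Within the Ras and Erk cascade, 5 of 24 genes were called higher and 12 lower (median -0.27). Map2k1, which encodes the kinase Mek1, was higher, with 110 ± 1.63 CPM in KO and 128 ± 13.5 in Het-labelled against 50.3 ± 1.57 in WT and 47.1 ± 4.21 CPM in SmoM2 (log2 1.29, SE 0.09, edgeR adjusted p 3.53e-06). Braf, a kinase that activates Mek, was lower (-1.06), as was the FGF receptor adaptor gene Frs2 (-0.82). Ksr1, a scaffold, changed by 0.78 and the ribosomal S6 kinase gene Rps6ka3 by -0.76. Of 16 other feedback genes 3 were called higher and 6 lower (median -0.19). Dusp2 (1.92), Dusp5 (1.40) and Dusp9 (0.74) were higher and Dusp8 (-2.19) and Dusp16 (-1.32) lower, so that the Dusp family, like the Sprouty and Spred genes, moved in both directions. Of 14 other ETS factors 2 were called higher and 7 lower (median -0.41). Elk4 (-1.44), Ets2 (-1.05), Ets1 (-0.67) and Elf1 (-0.43) were lower and Elf4 (0.60) higher. Libraries of Dusp9, Elf1 and Elf4 overlapped between the pooled groups, and those of the other genes named in this paragraph did not. Elf1 and Elf4 were called neither in KO nor in Het-labelled against WT.

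Of 14 transcripts known to be induced by Erk, 7 were called higher and 1 lower (median 0.62). Egr3 rose by 2.94 (SE 0.23, edgeR adjusted p 6.13e-06), Egr2 by 1.42, Junb by 1.33 and Ier2 by 1.22, while Fosl2 changed by -0.92. Fos (0.79, edgeR adjusted p 0.00348) and Egr1 (0.66, edgeR adjusted p 0.00478) were also higher in this pooled contrast. Between KO and SmoM2 they were level (Fos 0.06, edgeR adjusted p 0.878, Egr1 0.02, 0.954), and Egr1 was not called in KO against WT (0.45, 0.146). Of the 14, KO against SmoM2 gave 5 higher and 3 lower, against 16.5% and 16.0% of all genes. In SmoM2 against WT 0 were called, with a median of 0.45, beside 0.003 over all genes. Fos, Egr1, Junb and Ier2, 4 of the 7 called higher, also belong to the dissociation stress list, whose summed level was higher in KO and Het-labelled than in WT as given for Dusp6. With the stress score as a covariate, 3 of the 14 transcripts were called higher and 0 lower, with a median of -0.0016. Of all 13459 tested genes 1268 were called with this covariate, 47.6% of them higher. The same covariate left 2 higher and 0 lower among FGF ligands and receptors, 2 and 1 among the other receptor kinases, 1 and 2 in the cascade, 1 and 5 among the other feedback genes, and 0 and 3 among the other ETS factors. With length and GC trends removed, the other receptor kinase list gave 2 higher and 5 lower (median -0.21), the cascade 3 and 10 (-0.10), and the other ETS factors 1 and 4 (-0.18). FGF ligands and receptors gave 4 and 0 (0.38), the other feedback genes 3 and 6 (-0.22), and Erk-induced transcripts 7 and 2 (0.35). Except for the other feedback genes, these medians were smaller in size than in the main fit. The share of all genes called at that setting is not reported here.

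**Figure D4:**
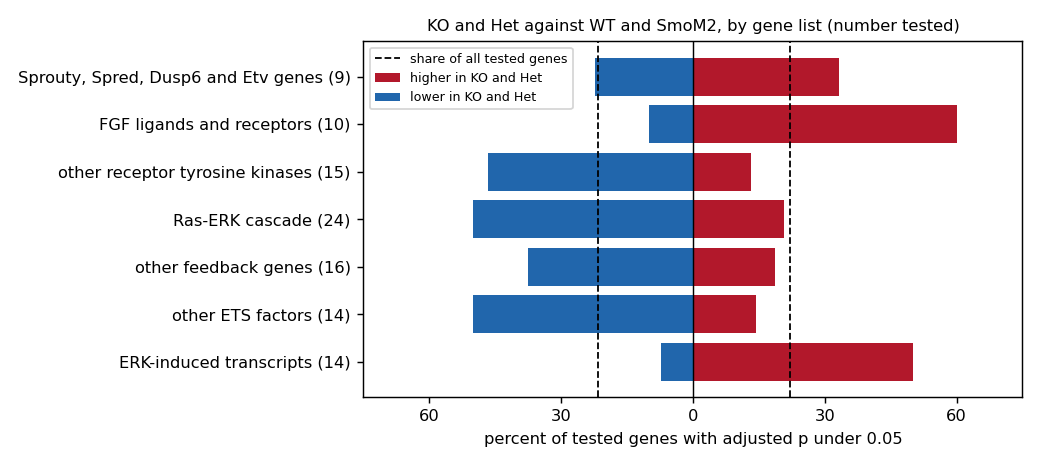
Percent of the tested genes of each list called higher (right) or lower (left) in KO and Het-labelled against WT and SmoM2, with dashed lines at the shares over all tested genes (22.0% and 21.5%). The bars of FGF genes and Erk-induced transcripts extend to the right, and those of other receptor kinases, the cascade and other ETS factors to the left.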

How the data were processed

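RNA of sorted nephron progenitors was sequenced as polyadenylated RNA in 8 libraries. Per the submitters' processing notes, the authors used STAR, featureCounts and Subread with mm10, and versions, annotation and strand setting are not given in the sources used here. The deposited table holds raw read counts per gene and the authors' RPKM values, with a gene length. Counts were tested and RPKM served to compare levels between genes. Libraries had 4422305 to 10305398 counts.

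Genes were filtered with filterByExpr, scaled by TMM and fitted with edgeR 4.0.16 in R 4.3.3 as a quasi-likelihood model with a mean per group over all 8 libraries (4 residual degrees of freedom). Tests are two-sided, adjusted over 13459 genes by Benjamini and Hochberg with a threshold of 0.05. CPM are counts divided by the scaled library size. Log2 CPM used a prior count of 2. With 2 libraries a group no exact permutation test could pass. The pathway, marker and stress lists were written by hand, and the members and lists were chosen with earlier results of these data known. From each pathway list at most 5 called genes, those with the largest change and a mean log2 CPM of 3 or more, in KO and Het-labelled against WT and SmoM2, were named. Genes of like pattern, 3 for each member, needed the same average and an SD of at least 0.3. Those of Spry2 are not reported here. The within-library ratios were chosen after their values were seen. Scripts were tested on simulated counts. Alternatives were DESeq2 1.42.0, its size factors, no filter, RPKM totals, the compared libraries alone, the replicate number, sex or a stress score as a term, a length trend and each library left out. Length with GC trends (GC matched for 97.9% of tested genes) and the fit without the Het-labelled libraries were added after seeing the data.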

Additional observations from a re-analysis of the deposited data

How the results depend on the processing

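Of the results for single genes under the alternatives, 530 kept their direction and side of the threshold, 57 lost a call, 29 gained one and 9 reversed, and the cause was not tested. Only results of the 9 genes with a low unadjusted p in the main fit entered, called or not. The 530 therefore include results uncalled throughout, such as Etv4 in KO against WT in all 19 alternatives, and do not measure how firm the calls are. With the stress score as a covariate, the genes called were 705 in KO against WT, 22 in Het-labelled against WT, 9 in SmoM2 against WT, 295 in KO against Het-labelled, 1381 in Het-labelled against SmoM2 and 1268 in KO and Het-labelled against WT and SmoM2. In these comparisons 0 of the 9 genes were called. In KO against SmoM2 4 were, a count given without its share over all genes, so nothing is read from it. The same covariate reversed Spry1 (-0.31), Spry4 (-0.083) and Dusp6 (-0.38) in Het-labelled against WT, and Dusp6 in Het-labelled against SmoM2 (-0.20) and in the comparison of 4 against 4 libraries (-0.19). Removing the length trend reversed Spred1 in KO against SmoM2 (0.084) and in 4 against 4 (0.044), and removing length and GC trends gave 0.17 and 0.21. In SmoM2 against WT the genes called were 82 with DESeq2, 356 with no filter, 8 in a fit of the compared libraries alone, 54 with the replicate block, 54 with sex as a term and 19 with length and GC trends removed. In KO against Het-labelled they were 2217 with no filter, 616 with the length trend removed and 367 with length and GC removed. Of the 9 genes, KO against WT called 1 with RPKM totals and 1 with length and GC trends removed. Of the 13459 tested genes 3124 and 2172 were called at these settings. KO against Het-labelled called 2 with DESeq2, its size factors, no filter, the compared libraries alone or the replicate block. KO against SmoM2 called 5 with RPKM totals or with sex as a term. Het-labelled against SmoM2 called 2 with length and GC removed, and 4 against 4 called 3 without the Het-labelled libraries. Apart from KO against WT, these counts of the 9 are given without the share of all genes at the same setting, so nothing is read from them.
Leaving out each library in turn gave 1304 to 2924 genes called in KO against WT, 1401 to 3615 in Het-labelled against WT, 8 to 81 in SmoM2 against WT, 36 to 1472 in KO against Het-labelled, 2423 to 4440 in KO against SmoM2, 2409 to 4732 in Het-labelled against SmoM2 and 4556 to 5497 in 4 against 4. Of the 9 genes, the same order gave 0 to 3, 0 to 3, 0 to 0, 0 to 2, 3 to 5, 1 to 4 and 5 to 6. Where a group kept 1 library, that library was assumed to vary like the other groups. Same-numbered libraries did not deviate together in every pair of groups (correlations of deviations -0.06 to 0.39). The highest was that of WT with SmoM2, where replicate 1 was male and replicate 2 female in both groups, so that there the number also stands for sex. With the replicate block Spry1 in Het-labelled against WT (0.37, edgeR adjusted p 0.0341), Spry4 in KO against Het-labelled (-0.58, 0.0404) and Spry4 in KO against SmoM2 (0.49, 0.0412) were called. The share of called genes that were higher in KO than in Het-labelled was 45.9%, 64.7% with RPKM totals and 35.8% with DESeq2. In KO against SmoM2 it was 62.8% with RPKM totals and 50.7% with TMM. The fewest counts, 58 to 143 per library, were those of Etv1, where depth limits what could be seen.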
